A study of Mus musculus with 11 samples.

Results

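The genes described here encode the nuclear subunits of respiratory complex I and the assembly factors that carry the same family name. They were chosen by symbol: protein-coding genes whose symbol begins with Nduf, with 10 or more counts in all 11 libraries of a muscle RNA sequencing experiment. Of 53465 genes in the count table, 46 were taken. All 46 protein-coding Nduf genes passed the count minimum, so none was lost to it. The member nearest to the minimum was Ndufa4l2, with at least 94 counts in every library, followed by Ndufb2 with at least 99 and Ndufaf2 with at least 109. A further 5 Nduf symbols of the annotation are not protein coding and stayed out, 4 of them processed pseudogenes. The other, Ndufb1-ps, is annotated as a noncoding transcript. It is the only entry there for the subunit Ndufb1, which the members therefore lack. Its level per kilobase, 48.3 CPM, was in the range of the subunits (CPM are counts scaled to the library's gene total). By textbook role the members divide into 36 subunits, 8 assembly factors (Ndufaf1 to Ndufaf8), and Ndufa4 and Ndufa4l2, which are now counted with complex IV.

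Complex I takes electrons from NADH, passes them along a chain of iron-sulfur clusters to ubiquinone and pumps protons across the inner mitochondrial membrane. Its N module binds NADH, its Q module reduces ubiquinone, and its membrane arm pumps; core subunits carry out the chemistry and supernumerary subunits surround them. Assembly factors join intermediates while the complex is built and are not part of the finished enzyme. Skeletal muscle holds much of the complex, more in oxidative than in glycolytic fibres.

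RNA came from the quadriceps, a thigh muscle, of aged C57L/6JRj mice. Both groups were followed from 18 months of age for 10 weeks: 5 libraries from mice given the solvent DMSO and 6 from mice given myriocin, an inhibitor of serine palmitoyltransferase, which starts sphingolipid synthesis. The question that the labels pose is how transcripts of aged muscle differ with this treatment. The labels do not state that each library is a separate mouse, so p-values then reflect only the spread among samples, which may be technical. The sources used here give neither dose nor sex. Libraries held 22241131 to 23163721 counts in genes, and 7.42% to 11.2% of these lay in mitochondrially encoded genes. Markers of fast muscle fibres summed to at least 156928 CPM in every library, and the tissue is labelled as skeletal muscle. In bulk muscle, fewer cells or fibres of a type and less RNA per cell cannot be told apart.

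The subunit transcripts were among the most abundant in this muscle, and the Ndufaf transcripts stood well below them but above the typical gene. On a per-length scale (CPM per kilobase of the main transcript, mean of 11 libraries) the 36 subunits had a median level of 179, the lowest being 12.4. The 8 Ndufaf genes had a median level of 14.7 (range 9.07 to 28.2), and the median over all 14117 tested genes was 3.73. The subunit median was therefore 12.2 times that of the assembly factors. It lay above 97.8% of tested genes, and the Ndufaf median above 78.4%. The only subunit below the highest assembly factor was Ndufb2. With the length of all annotated exons in place of the main transcript, the ratio of medians was 7.30 and 2 subunits lay below the highest assembly factor.

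**Figure D1:**
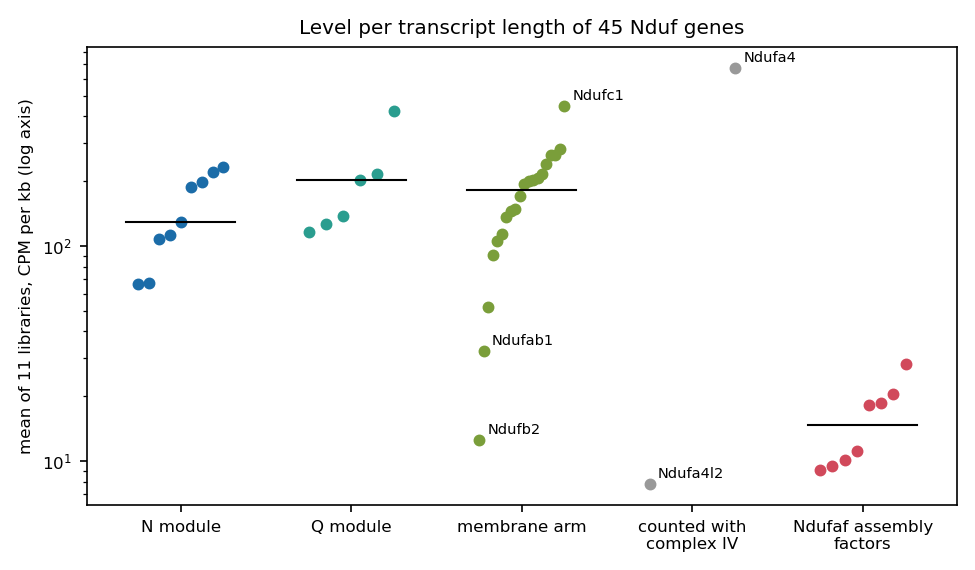
Mean level of 45 genes over 11 libraries, in CPM per kilobase of main transcript on a log axis, by role; each point is a gene and each line the median of all members of its class. The Ndufaf genes sit between 9.07 and 28.2, below every subunit except Ndufb2.

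The modules overlapped in level. Medians per kilobase were 129 CPM for the 9 N module genes (66.5 to 232), 203 CPM for the 7 Q module genes (lowest 117) and 182 CPM for the 20 membrane arm genes (12.4 to 448). The 7 core subunits had a median of 203 and the 29 supernumerary ones 171. Among the highest was Ndufc1, a small membrane arm subunit, with 448 CPM per kilobase, on a main transcript of 315 bases; with all its exons counted it stood at 94.3. Ndufs7, which helps to form the ubiquinone pocket, had 422. At the other end, Ndufab1, the mitochondrial acyl carrier protein, had 32.3 and Ndufb2, a small membrane arm subunit, 12.4.

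Counts of some members leave out reads. Reads with several alignments and reads touching more than 1 gene were 15.2% to 18.1% and 6.46% to 7.73% of a library, and neither kind enters the gene counts. The main Ndufb2 transcript has 31.9% of its bases in exons of another gene model on the same strand, Gm42420, and 18.5% in exons on the opposite strand. Of its stretches of 50 bases, 33.5% also occur in other transcripts. For Ndufab1 31.2% of such stretches are shared, for Ndufs3 39.7%, for Ndufs5 41.2% and for Ndufb4 37.0%. Among all 46 members, 9 share at least 20% of their stretches, 15 overlap an exon on the opposite strand and 21 share nothing with another gene. Levels of the sharing genes are therefore uncertain, also because the sources used here do not give the strand setting of the counting. Among the 8 assembly factors 6 share nothing.

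Promoter windows of the RefSeq annotation (build GRCm38.p6, 250 bases before to 50 after the start) were found for 40 members, 32 of them subunits, and searched on both strands for 4 motifs linked to respiratory genes. The YY1 motif, spelled by the capitals in the first 5 stretches, occurred in 5 of 40 members (12.5%), against 0.755% of 27025 genes, and the NRF1 motif, spelled by the capitals in the last stretch, in 3 of 40 (7.5%), against 1.07%. The GABPA motif CCGGAAGTG occurred in 1 of 40 (2.5%; all genes 2.25%) and the ERR motif TCAAGGTCA in 0 of 40 (all genes 0.466%). No member window held more than 1 of these motifs. Member windows were richer in G and C, with a median of 59.3% against 52.7% for all windows. The 5 stretches with the YY1 motif are shown because they place the same letters just downstream of the start in genes of different roles: Ndufs7 of the Q module core, Ndufs4 and Ndufs6 of the N module, Ndufa9 of the Q module and the assembly factor Ndufaf8. Capitals mark the motif, and each stretch runs 5′ to 3′ on the strand of its gene.
Ndufs7, chr10:80249464-80249493, plus strand: gccgaggccAAGATGGCGGCgctggcgggt
Ndufs4, chr13:114388045-114388074, minus strand: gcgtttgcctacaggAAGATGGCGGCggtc
Ndufs6, chr13:73328433-73328462, minus strand: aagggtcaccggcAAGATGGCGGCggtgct
Ndufa9, chr6:126849095-126849124, minus strand: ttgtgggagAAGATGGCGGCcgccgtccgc
Ndufaf8, chr11:120098935-120098964, plus strand: gcagggcccAAGATGGCGGCgccctcgaga
The NRF1 motif lay downstream of the start in Ndufaf5 and upstream of it in Ndufa11, a membrane arm subunit, and in Ndufaf4. The Ndufaf5 stretch shows it in capitals.
Ndufaf5, chr2:140170652-140170681, plus strand: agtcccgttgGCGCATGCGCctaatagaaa
A match is a description of sequence, not a bound site.

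Transcript levels of the subunits moved together from library to library, and DMSO replicate 5 stood apart. The summed level of the 36 subunits was 5800, 6068, 6143, 5397 and 7515 CPM in DMSO replicates 1 to 5. In the myriocin libraries the lowest sum was 5198, the median 5727 and the highest 6517 CPM. Replicate 5 was thus the highest of all libraries, and the other 4 DMSO sums lay inside the myriocin range. Group means were 6185 ± 799 CPM for DMSO (SD, n = 5) and 5788 ± 452 CPM for myriocin (SD, n = 6). Without DMSO replicate 5 the DMSO mean was 5852 ± 337 (SD, n = 4), and the gap between the groups was smaller than either SD.

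Gene by gene, 34 of 36 subunits had their highest CPM in DMSO replicate 5, where 11.7% of all tested genes did. The exceptions were Ndufs1, highest in Myriocin replicate 5, and Ndufa7, a small N module subunit, highest in DMSO replicate 2. The median log2 deviation from a gene's own mean was 0.39 for subunits in DMSO replicate 5, 0.26 for Ndufaf genes and -0.04 for all tested genes. All 8 Ndufaf genes were above their own mean there, and 6 were highest there; Ndufaf4 and Ndufaf5 peaked in Myriocin replicate 5. Myriocin replicate 4 had 35 of 36 subunits above their mean, by a median of 0.13. The low end was shared: 16 subunits had their lowest value in DMSO replicate 4 (all tested genes 5.26%) and 16 in Myriocin replicate 3 (all tested genes 11.5%).

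**Figure D2:**
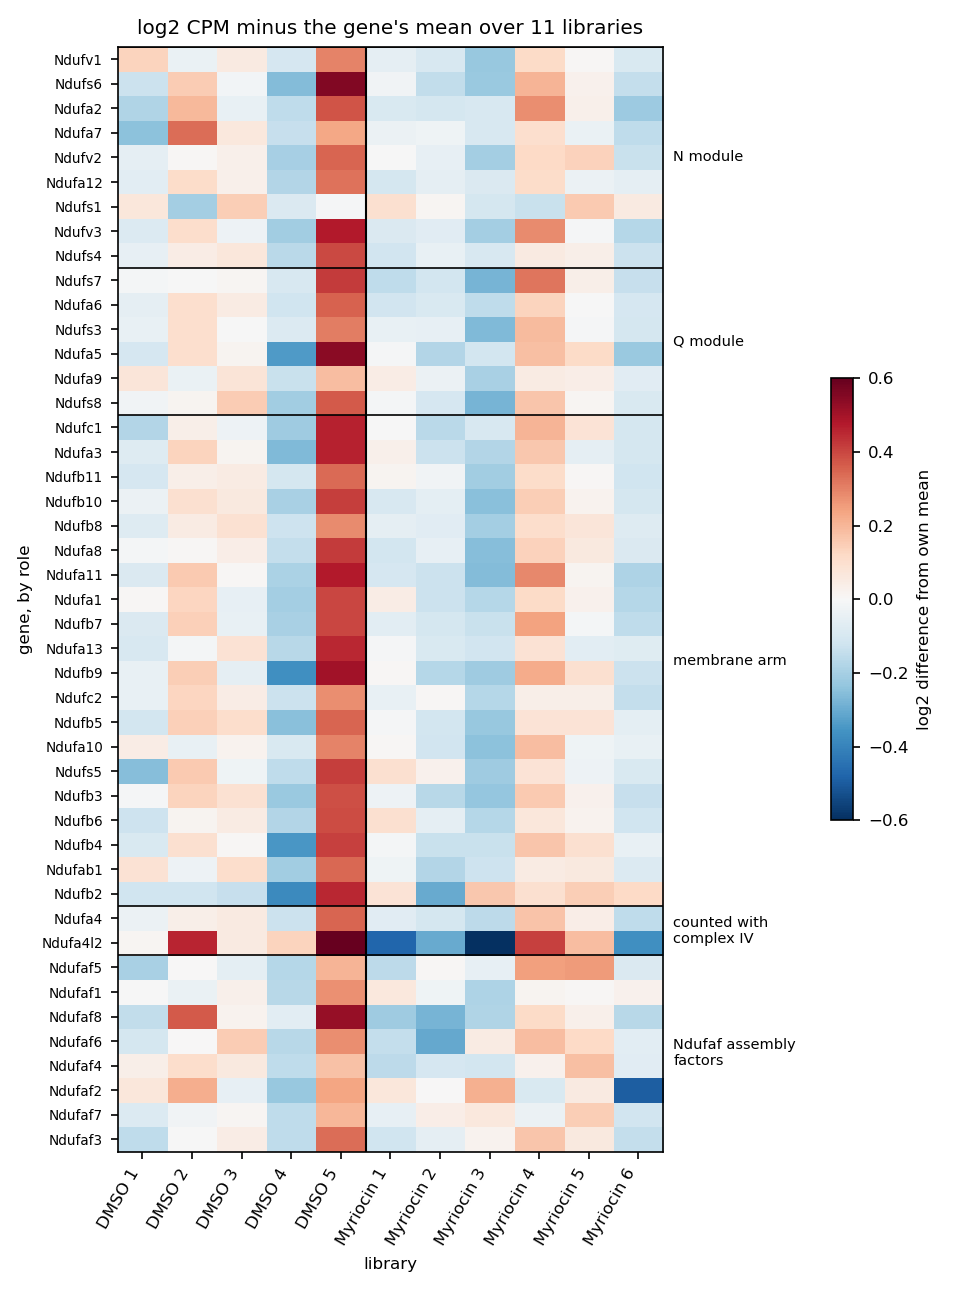
Log2 deviation of each member's CPM from its own mean over the 11 libraries; rows are 45 genes by role, columns the libraries, and colour the deviation, with values past the ends of the scale drawn in the end colour. The column of DMSO replicate 5 is high for nearly all genes (35 of 36 subunits and 8 of 8 Ndufaf genes above their mean). That of Myriocin replicate 3 is low for nearly all subunits (1 of 36 above its mean), while the Ndufaf genes are split (4 of 8 above).

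The level of the assembly factors moved less in Myriocin replicate 3. Their median deviation there was -0.02, against -0.19 for the subunits. They were split, with 4 of 8 above their own mean and Ndufaf1 and Ndufaf8 both at -0.18. In Myriocin replicates 1 and 5 the assembly factors moved more than the subunits. Their median deviations were -0.13 and 0.09 there, against -0.02 and 0.03. Summed Ndufaf levels were 165, 180, 177, 155 and 207 CPM in the DMSO libraries, and 162 at the lowest, 165 at the median and 189 at the highest with myriocin. The means were 177 ± 19.4 CPM (SD, n = 5) and 171 ± 12.3 (SD, n = 6). The ratio of summed subunits to summed Ndufaf genes was 34.9 ± 0.975 with DMSO and 33.8 ± 1.92 with myriocin, from 31.3 in Myriocin replicate 3 to 36.4 in DMSO replicate 5. The groups overlapped in this ratio, and the difference of means was larger than the DMSO SD and smaller than the myriocin SD. The median coefficient of variation over all libraries was 12.9% for subunits (7.36% to 17.8%) and 11.4% for Ndufaf genes (7.54% to 18.8%). It was 14.0% for all tested genes, which lie mostly at lower levels and were not matched on level.

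**Figure D3:**
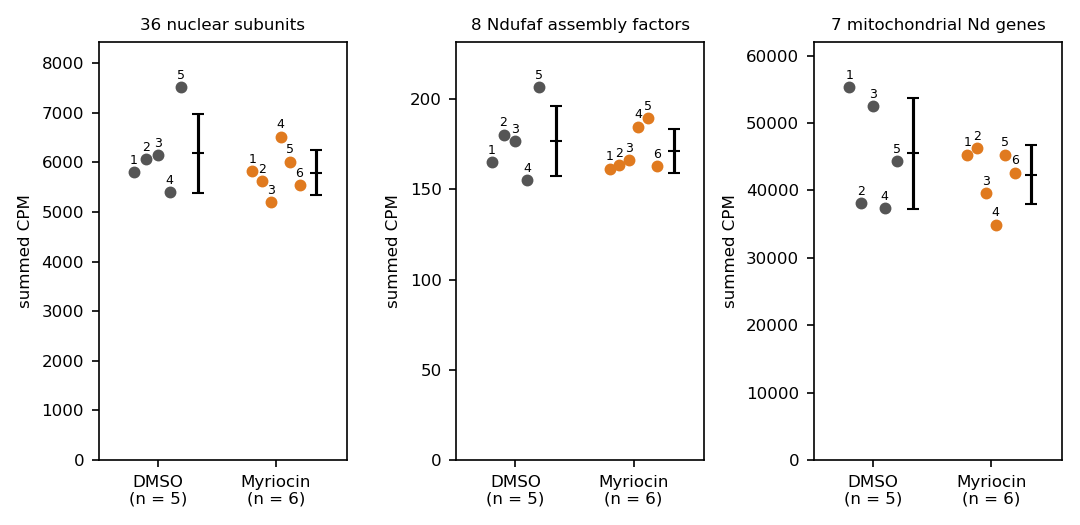
Summed CPM of the 36 nuclear subunits, the 8 Ndufaf genes and the 7 mitochondrially encoded subunits in each library, by treatment; points are libraries with their replicate number, and bars show the group mean with 1 SD on each side. DMSO replicate 5 (7515 CPM for subunits, 207 for Ndufaf genes) lies above all other libraries in the first 2 panels but not in the mitochondrial one.

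Other features of the libraries varied too, some of them along with these sums and others not. Reads set aside as ambiguous were 7.48% in DMSO replicate 5 and 7.73% in Myriocin replicate 4, the libraries with the highest subunit sums, and 6.46% to 7.10% elsewhere. Short transcripts as a class were high in both, and also in DMSO replicate 2. Among coding genes with a main transcript below 771.5 bases, the median length of the subunits, the median deviation was 0.22 in DMSO replicate 5 and 0.11 in Myriocin replicate 4; among longer ones it was -0.05 and -0.07. In DMSO replicate 2 the short coding genes deviated by 0.20 and the subunits by 0.10. Short and long subunits were alike, at 0.41 and 0.35 in DMSO replicate 5. The 18 long subunits and the 12389 long coding genes were not matched for length above the cut. The 7 hepatocyte markers, all in the table, summed to 99.9 CPM in DMSO replicate 5, 129 in Myriocin replicate 4 and 116 in DMSO replicate 4, and to 6.01 to 28.3 elsewhere; DMSO replicate 4 had one of the lowest subunit sums. Serpina1c was at 0 in some libraries. The 10 slow and oxidative fibre markers, none at 0, summed to 2719 to 4929 CPM with DMSO and 1318 to 4287 with myriocin. Their sum was lowest in Myriocin replicate 3. In DMSO replicate 5 it was 4275 CPM, below the 4623, 4705 and 4929 of DMSO replicates 1 to 3. The part of any of these in the complex I values was not tested.

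With myriocin, no complex I transcript passed the test. By the edgeR quasi-likelihood test with Benjamini-Hochberg adjustment over 14117 genes, 0 of 46 members passed at an adjusted p of 0.05 (all tested genes 0%), and the smallest adjusted p of a member was 0.936. No member (0 of 46) reached an unadjusted p under 0.05 either, where 4.68% of all tested genes did (2.34% of all tested genes with a lower level under myriocin). DESeq2 called 0 members and 6 of 14093 genes, and limma-voom called 0 members, with 1 of 46 at an unadjusted p under 0.05, against 4.68% of all tested genes in that fit. Between 0 and 2 members, each time out of Ndufa4l2, Ndufaf8 and Ndufb2, had an unadjusted p under 0.05 in the other alternatives. There were 2 without TMM, 2 without Myriocin replicate 4, and 2 without both DMSO replicate 5 and Myriocin replicate 4. The shares of all tested genes in these fits were 5.60%, 10.3% and 8.01%. Each other fit with such a member had 1, against 3.63% to 7.12% of all tested genes. For 0 of 46 members the CPM of the groups did not overlap, against 0.602% of all tested genes.

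The differences were small and mostly of 1 sign. Log2 fold changes (myriocin minus DMSO) were negative for 34 of 36 subunits, around a median of -0.067 (range -0.11 to 0.13), against 53.7% negative and a median of -0.012 over all tested genes. Fibre markers also differed in sign between the groups, with no gene passing: 8 of 10 slow and oxidative markers were negative (median -0.23), and 7 of 10 fast glycolytic markers were positive (median 0.15). Fast markers summed to 156928 to 176856 CPM with DMSO and 171796 to 187853 with myriocin; the part of fibre makeup in the subunit values was not tested. Leaving out DMSO replicate 5 alone reversed the sign of most subunits. Without that library 32 of 36 subunits were positive, with a median of 0.034, while 53.3% of all genes were still negative. Without both DMSO replicate 5 and Myriocin replicate 4, a choice made after seeing the data, 21 of 36 were negative and the median was -0.0058. All tested genes in that fit were 51.7% negative, with a median of -0.0053. Without DMSO replicates 4 and 5 and Myriocin replicate 4, 29 of 36 subunits were negative (all tested genes 51.5%), with a subunit median of -0.043. The median was also moved by more than 1.5 times by leaving out DMSO replicate 4 (-0.114), Myriocin replicate 4 (-0.119) or Myriocin replicate 3 (-0.035).

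**Figure D4:**
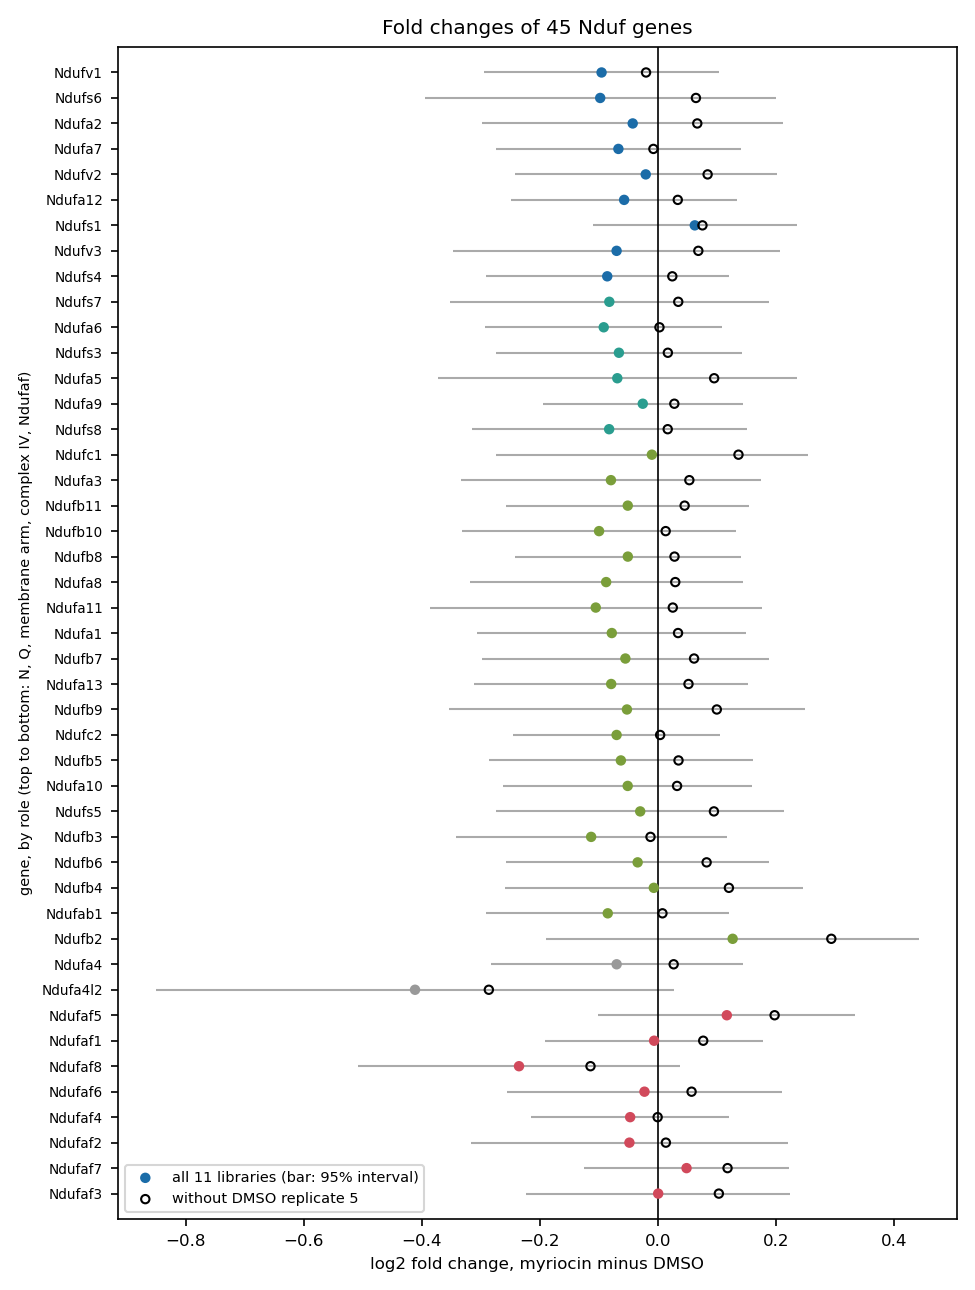
Log2 fold change (myriocin minus DMSO) of 45 genes, ordered by role, with its 95% interval from all 11 libraries (filled points) and the value without DMSO replicate 5 (open points). Nearly all filled subunit points lie left of 0 and nearly all open ones right of it, and every 95% interval includes 0.

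Among the N module core genes, Ndufv1, which binds NADH and the flavin, had 421, 373, 399, 358 and 471 CPM with DMSO and 327 at the lowest, 365 at the median and 416 at the highest with myriocin. The groups overlapped, and the log2 fold change was -0.10 (SE 0.09), or -0.02 without DMSO replicate 5 and -0.14 without Myriocin replicate 4. Ndufv2, an iron-sulfur subunit beside it, had 223 ± 32.4 CPM (SD, n = 5) and 215 ± 20.2 (SD, n = 6), a log2 fold change of -0.02. Ndufs1 (chromosome 1, 63143596 to 63176833, minus strand, GRCm38), the largest subunit, which carries several iron-sulfur clusters, did not share the common library pattern. Its values were 290, 240, 306, 260 and 275 CPM with DMSO and, with myriocin, 252 at the lowest, 283 at the median and 308 at the highest. DMSO replicate 5 lay near the middle of these. The log2 fold change was 0.06 (SE 0.08, 95% interval -0.11 to 0.23), and it was positive whichever library was left out (0.0029 to 0.10).

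Among the Q module core genes, Ndufs7 had 314, 316, 320, 297 and 425 CPM with DMSO, and 262 at the lowest, 291 at the median and 396 at the highest with myriocin. A single high library in each group, DMSO replicate 5 and Myriocin replicate 4, set the upper ends, and the log2 fold change was -0.08 (SE 0.13). Ndufs3, a core subunit of the same module, and Ndufs8, which holds iron-sulfur clusters, had log2 fold changes of -0.07 (SE 0.10) and -0.08 (SE 0.11).

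Among the membrane arm genes, Ndufb3, a small supernumerary subunit, had the lowest log2 fold change of any subunit, -0.11 (SE 0.11), with 84.7 ± 13.1 CPM (SD, n = 5) against 76.4 ± 7.64 (SD, n = 6). This value was -0.01 without DMSO replicate 5 and -0.18 without DMSO replicate 4. Ndufb2 was the only one with a positive value. It had 5.14, 5.14, 5.07, 4.29 and 7.64 CPM with DMSO, and 4.53 at the lowest, 6.02 at the median and 6.25 at the highest with myriocin. DMSO replicate 5 was higher than any myriocin library, while the other 4 DMSO values lay below 5 of the 6 myriocin values. Its log2 fold change was 0.13 (SE 0.15), and 0.29 without DMSO replicate 5, where it did not pass either. The shared exons of this gene, given above, apply here too. Ndufab1 and Ndufc1 had log2 fold changes of -0.08 (SE 0.10) and -0.01 (SE 0.12).

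The 8 assembly factors were less uniform in sign than the subunits: log2 fold changes were negative for 5 and positive for 3, and their median was -0.015. The difference between both classes was not tested. Ndufaf8 (chromosome 11, 120098928 to 120100705, plus strand), the partner of Ndufaf5, had 12.8, 18.3, 14.4, 13.6 and 20.4 CPM with DMSO, and 11.7 at the lowest, 12.6 at the median and 15.4 at the highest with myriocin. DMSO replicates 2 and 5 were above all myriocin libraries and the other 3 were among them. The log2 fold change was -0.24 (SE 0.13, 95% interval -0.51 to 0.04) with an adjusted p of 0.936 in the edgeR test, and -0.11 without DMSO replicate 5. Ndufaf5, which hydroxylates an arginine of Ndufs7, differed in sign from its partner: 28.6, 32.8, 31.4, 29.0 and 37.6 CPM with DMSO, and 29.3 at the lowest, 32.2 at the median and 39.0 at the highest with myriocin. The groups overlapped throughout, at a log2 fold change of 0.12 (SE 0.10), which was 0.06 without Myriocin replicate 4 and 0.20 without DMSO replicate 5.

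The other assembly factors stayed close to 0 in log2 fold change. Ndufaf3 and Ndufaf4, which work together on the Q module, had 0.00041 (SE 0.10) and -0.05 (SE 0.08). Ndufaf7, a methyltransferase of early assembly, had 0.05 (SE 0.08). Ndufaf1, a factor for the membrane arm, and Ndufaf6 had -0.0065 (SE 0.09) and -0.02 (SE 0.11). Ndufaf2, a chaperone of late assembly and paralog of Ndufa12, had -0.05 (SE 0.13). A difference that lies within these intervals was not detectable with these libraries.

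The largest difference of any member was in Ndufa4l2 (chromosome 10, 127514967 to 127517154, plus strand), a paralog of the complex IV subunit Ndufa4 that is known as a hypoxia target. It had 7.03, 9.58, 7.23, 7.66 and 11.02 CPM with DMSO, and 4.11 at the lowest, 5.53 at the median and 9.27 at the highest with myriocin. Of the 6 myriocin libraries, replicates 4 and 5 lay within the DMSO range and the others below it. The log2 fold change was -0.41 (SE 0.20, 95% interval -0.85 to 0.03), with an adjusted p of 0.936 in the edgeR test; without DMSO replicate 5 it was -0.29 and without Myriocin replicate 4 it was -0.57. Over all alternatives run its adjusted p lay between 0.393 and 0.9995. Ndufa4 was abundant, at 674 CPM per kilobase against 7.78 for Ndufa4l2, and had a log2 fold change of -0.07 (SE 0.10).

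Other genes of complex I gave no calls either. The 7 mitochondrially encoded core subunits summed to 45510 ± 8190 CPM for DMSO (SD, n = 5) and 42332 ± 4369 CPM for myriocin (SD, n = 6); log2 fold changes were negative for 5 and positive for 2, their median was -0.10, and 0 passed. DMSO replicate 5, at 44328 CPM, was not high in this sum, and replicate 1 was the highest at 55319. In this list mt-Nd3 had -0.23 (SE 0.17) and mt-Nd4l 0.47 (SE 0.37), the latter on 8 to 36 counts. With 1 library left out these ran from -0.36 (DMSO replicate 4) to -0.11 (DMSO replicate 5) and from 0.26 (Myriocin replicate 1) to 0.91 (DMSO replicate 3). Of 12 assembly factors with other symbols 11 were in the table; 6 were negative and 5 positive, with a median of -0.011 and 0 calls. Acad9, which acts with Ndufaf1, had 22.7 ± 2.57 CPM for DMSO and 24.5 ± 0.413 CPM for myriocin (log2 fold change 0.15, SE 0.07); Nubpl, which delivers iron-sulfur clusters, had -0.13 (SE 0.10). Among 11 regulators of respiratory genes 8 were negative, with a median of -0.029 and 0 calls. Esrrb, an estrogen-related receptor, had 9.58 ± 2.57 CPM and 6.69 ± 1.94, a log2 fold change of -0.48 (SE 0.22) with an adjusted p of 0.936 in the edgeR test, and was the only regulator with an unadjusted p under 0.05. Gabpb1, a subunit of the factor GABP, had 0.05 (SE 0.09).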

How the data were processed

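The authors deposited raw read counts per Ensembl gene for 11 libraries; the tools named are STAR 2.5.2b for alignment and HTSeq 0.6.0 for counting, on GRCm38, as listed per the submitters' processing notes. The sources used here give no strand setting, annotation release or read filter. The labels name total RNA, a Direct-zol kit and DNBseq. The 5 HTSeq summary lines (24.8% to 28.2% of reads) stayed out of totals. Symbols and lengths came from GENCODE M21, which matched 53360 of 53465 genes. The main transcript was the best-ranked principal isoform, then the shortest.

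CPM are counts scaled to a library's gene total, without TMM. Tests used edgeR 4.0.16 in R 4.3.3 (filterByExpr with minimum count 10 and minimum total 15, TMM, robust quasi-likelihood F test, treatment only), with Benjamini-Hochberg adjustment over 14117 genes and a threshold of 0.05. SE was obtained from each log2 fold change and its F statistic. Scripts were tested on simulated data. Alternatives used DESeq2 1.42.0 and limma 3.58.1. Intervals and counts cover counting error and spread between libraries; reads may include PCR copies.

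Members and lists were chosen with earlier results of these data known. Genes named were the nuclear core subunits, the Ndufaf genes, the 3 members of smallest p on either side, the subunits with the 2 highest and 2 lowest levels per length, the members nearest the count minimum, and in other lists the gene of smallest p on either side. Of these, 1 gene is not reported here; it counts in totals and medians and is not drawn in plots of single genes. Ndufa4, Ndufa7, Ndufb1-ps and the genes named for shared or promoter sequence were chosen after their values were seen. Marker lists of adipocytes, neutrophils, endothelial cells, macrophages, fibroblasts and Schwann cells were also summed. No gene of them passed (all tested genes 0%). Negative log2 fold changes were, in that order, 5 of 6, 3 of 3, 7 of 7, 3 of 5, 1 of 5 and 5 of 5 tested markers (all tested genes 53.7%). Only 3 of 7 neutrophil markers were tested. DMSO replicate 2 stood apart, with 873 CPM of neutrophil markers (0.495 to 120 elsewhere) and 1309 of adipocyte markers (149 to 457 elsewhere).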

Additional observations from a re-analysis of the deposited data

Results flagged for a closer look

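Of 60 groups of values examined (each named gene or sum within DMSO or within myriocin), 5 held a library far from the others by Dixon's criterion, which chance meets in about 1 in 20 groups. For Ndufs7 with DMSO it was replicate 5, at 425 CPM, where the next value was 320. For Ndufb2 with DMSO it was again replicate 5, at 7.64 CPM, with 5.14 next. For Ndufb2 with myriocin it was replicate 2, at 4.53 CPM, below 5.91. For Ndufaf1 with myriocin it was replicate 3, at 26.1 CPM, below 29.2. For Acad9 with myriocin it was replicate 3, at 25.3 CPM, where the other libraries lay at or below 24.5.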

How the results depend on the processing

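The count of members past the threshold was 0 under every alternative run (DESeq2, no TMM, no filter, limma-voom, replicate block, 3 liver-marked libraries left out, abundant genes left out, each library left out). Same-numbered libraries showed no sign of pairing: their deviations correlated at -0.13 to 0.09, and no DMSO library matched its own number best. Whether they shared handling cannot be told from these values. All 46 members were kept with a minimum of 5 or 20 counts, which could not differ because the lowest count of a member in any library was 94.

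The median of the subunits was -0.042 with the replicate block, where 28 of 36 were negative (all tested genes 53.3%). It was -0.043 without DMSO 4, DMSO 5 and Myriocin 4, and -0.103 without TMM. In the fit without TMM all tested genes were lower too, with a median of -0.048 and 64.7% negative. With all libraries and TMM those values were -0.012 and 53.7%. With 1 library left out it lay between -0.119 and 0.034. For the Ndufaf genes that range was -0.057 to 0.067. Of 466 values of named genes under these alternatives 433 kept their sign and 33 changed it, 24 of these with 1 library left out. Log2 fold changes that changed sign were, without TMM, Ndufaf3 (-0.034); with limma-voom, Ndufaf1 (0.0015) and Ndufc1 (0.0076); with the replicate block, Ndufv2 (0.013), Ndufaf2 (0.037) and Ndufc1 (0.029). Over the same 10 libraries without the block they were Ndufv2 (0.0051), Ndufaf2 (0.032) and Ndufc1 (0.012). Without DMSO 4, DMSO 5 and Myriocin 4 they were Ndufv2 (0.014), Ndufaf1 (0.036) and Ndufc1 (0.056). Without both DMSO 5 and Myriocin 4 they were Ndufv2 (0.050), Ndufaf1 (0.066), Ndufaf2 (0.022), Ndufaf6 (0.0076) and Ndufc1 (0.084). With 1 library left out, ranges that crossed 0 were Ndufs3 -0.13 to 0.017, Ndufs7 -0.18 to 0.034, Ndufs8 -0.14 to 0.017, Ndufv2 -0.071 to 0.084, Ndufaf1 -0.048 to 0.077, Ndufaf2 -0.11 to 0.032, Ndufaf3 -0.049 to 0.10, Ndufaf6 -0.079 to 0.057, Ndufc1 -0.069 to 0.14 and Ndufab1 -0.14 to 0.0076. Ranges that kept their sign but ended over 1.5 times away from the value in all libraries were, beside those in the report, Ndufaf4 -0.089 to -0.00051, Ndufaf7 0.018 to 0.12, Ndufb2 0.054 (without DMSO 4) to 0.29, Nubpl -0.17 to -0.077 and Gabpb1 0.0030 to 0.096. The fits on 10 unblocked libraries and without both DMSO 5 and Myriocin 4 were chosen after seeing the data. The cause of these changes was not tested.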
